A study of Drosophila melanogaster with 6 samples.

Results

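The genes for mitochondrial ribosomal proteins were followed in Δ*l(3)mbt* OSCs after siRNA against *ovo*. They were taken as every gene whose symbol begins with mRpL or mRpS and a digit, which gave 73 of the 17807 genes in the deposited table. By symbol, 47 belong to the large subunit and 26 to the small subunit. The genes are spread over the genome, with 21 on chromosome arm 3R, 17 on 3L, 12 on 2L, 12 on 2R and 11 on X. The rule uses names only. OSCs are cultured *Drosophila melanogaster* ovarian somatic cells of the follicle lineage, and the cells of both groups carried a knockout of *l(3)mbt*, which encodes a chromatin repressor of germline genes in somatic tissue. One group received 21 nt siRNA duplexes against *ovo*, which encodes a germline transcription factor with zinc fingers, and the control group received duplexes against *renilla* luciferase, a gene that flies do not have. Polyadenylated RNA was sequenced from 3 libraries per group, harvested 48 h after transfection. The question put to these genes was whether siRNA against *ovo* moved the parts of the mitochondrial ribosome, and how the subunits compared.

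The mitochondrial ribosome translates the few mRNAs of the mitochondrial genome, which encode core subunits of the respiratory chain and ATP synthase. Its 2 rRNAs come from the mitochondrial genome, whereas its proteins are encoded in the nucleus, made in the cytosol and imported. Some of these proteins descend from bacterial ribosomal proteins, such as L3, L12 and S5, and others occur only in mitochondria. In the fly, loss of single members slows growth, and the small subunit gene *technical knockout* (*tko*) is a known mutant with bang sensitivity.

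The libraries differed in depth. The *ovo* siRNA libraries held between 14276921 and 21481506 reads, *renilla* siRNA replicates 1 and 2 held 11623446 and 11337660, and *renilla* siRNA replicate 3 held 2759594. A normalized count is a read count divided by the size factor of its library, and the 3 reads that a count of 0 still allows came to between 1.39 and 13.1 normalized counts. All 72 genes that could be tested had reads in every library, with 21 to 326 reads per gene in *renilla* siRNA replicate 3 and 59 to 2583 in the other libraries. The target *ovo* had 961, 885 and 875 normalized counts in *ovo* siRNA replicates 1, 2 and 3, against 1300, 1590 and 1642 in the *renilla* siRNA replicates (1.66-fold lower, adjusted p = 0.0086 by limma). Without *ovo* siRNA replicate 2, or with a trend in transcript length and GC content removed (log2 difference -0.37, adjusted p = 0.192 by limma), the fall did not pass, and over the 19 alternative settings the adjusted p ran from 1.1e-05 to 0.192. The gene *l(3)mbt* remained listed with 1668 to 3399 normalized counts in the 6 libraries (adjusted p = 0.267 by limma). Follicle cell markers were abundant, and the 6 listed summed to between 35644 and 40884 normalized counts after *ovo* siRNA and between 55991 and 58587 in the control. Of these markers, *fs(1)Yb* rose and *tj*, *ImpL2* and *chinmo* fell, the last not with the length and GC trend removed (adjusted p = 0.459 by limma). Among the germ cell markers, *vas* was abundant and *nos*, *osk* and *bam* were near 0, and the 5 summed to between 2176 and 2488 after *ovo* siRNA and between 1787 and 2357 in the control, with *aub* the one that fell of 2 tested. Hemocyte markers summed to between 582 and 883 after *ovo* siRNA and between 403 and 744 in the control, with *Hml* and *NimC1* near 0 and *Ppn* the one that fell of 3 tested. Muscle markers were low and the groups did not overlap, with sums of 142 to 192 after *ovo* siRNA and 232 to 285 in the control, and of 4 tested *Mlc2* rose and *Mlc1* and *bt* fell. Neuron markers summed to between 1599 and 1824 after *ovo* siRNA and between 1681 and 2343 in the control. Nearly all came from *elav*, which did not pass, with *brp* and *Syt1* near 0. The call of *elav* changed with the setting. By limma it fell without *renilla* siRNA replicate 3 (log2 -0.39) and rose with the length and GC trend removed (log2 0.86). The part of these marker differences in the results was not tested, and fewer cells of a type and less RNA per cell cannot be told apart in bulk libraries. Apart from its depth, *renilla* siRNA replicate 3 differed from the other controls in nearly every member, as given below, so the main counts are also given without it.

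Levels of the members were compared per kb of exon, since longer transcripts yield more reads. Over the 6 libraries, 66 of the 72 genes with reads lay within 2-fold of their median of 405 normalized counts per kb. The most abundant was *mRpL12*, whose product is the counterpart of the bacterial stalk protein that recruits translation factors. It had 1516 ± 115 normalized counts per kb after *ovo* siRNA and 1315 ± 552 in the control (SD, n = 3 each). The next in order were *mRpL28* at 827, *mRpL23* at 822 and *mRpL30* at 770 normalized counts per kb, averaged over the 6 libraries. These means, and so the order, include the high values of *renilla* siRNA replicate 3. There *mRpL23* had 968 normalized counts, against 415 and 398 in control replicates 1 and 2, and *mRpL30* had 893, against 416 and 396. The protein mRpL23 is the counterpart of a protein at the exit of the peptide tunnel. In the *ovo* siRNA group, *mRpL28* at 930 ± 156 and *mRpL23* at 794 ± 174 (SD, n = 3 each) did not differ beyond their spread. The highest small subunit gene was *mRpS7*, for a protein of the subunit head, at 691 normalized counts per kb. At the low end stood *mRpL21* at 158, *mRpS18C* at 172.5, *mRpL40* at 174, *mRpS24* at 213 and *mRpL54* at 214 normalized counts per kb. These low genes lay close together: *mRpL40* had 207 ± 56.9 and *mRpL54* had 239 ± 23.9 normalized counts per kb after *ovo* siRNA (SD, n = 3 each). The 3 genes related to the bacterial protein S18 differed in level, at 474 for *mRpS18A*, 269 for *mRpS18B* and 172.5 for *mRpS18C*. In mammals the S18A protein is a part of the large subunit, as is that of *mRpS30*, so the split by symbol is one of names. The gene *mRpL53* was listed at 0 in all 6 libraries. Its 829 exonic bases lie wholly within exons of CG33155 on the same strand, so its reads could not be told apart from those of that gene, and it was left out of every test. The same holds in part for *mRpL13*, which shares 35.2% of its exonic bases with CG10602, and for *mRpS14*, which shares 3.76% with CG32533.

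The subunits kept nearly the same balance in every library. In *ovo* siRNA replicates 1, 2 and 3 the median large subunit gene stood at 333, 412 and 465 normalized counts per kb. The median small subunit gene stood at 367, 465 and 487. In *renilla* siRNA replicates 1, 2 and 3 the large subunit medians were 282, 274 and 480, and the small subunit medians were 317, 292 and 539. On this scale both medians were highest in *renilla* siRNA replicate 3 and lowest in the other 2 control libraries, and the groups overlapped. The ratio of the large to the small median ran from 0.886 to 0.954 over the 6 libraries, with 0.886 and 0.954 both in the *ovo* siRNA group. The highest large subunit gene exceeded the lowest by 6.998-fold to 11.7-fold depending on the library (46 genes). In the small subunit it did so by 3.39-fold to 6.11-fold (26 genes). This ratio rests on single genes and on sets of unlike size, and the quartiles did not always follow it. In *ovo* siRNA replicate 1 they were 248 and 444 in the large and 290 and 420 in the small subunit. In *renilla* siRNA replicate 3 they were 372 and 621 in the large and 396 and 723 in the small subunit. In all, the members took 2485, 2929 and 3075 of each 1000000 reads in the *ovo* siRNA replicates and 1965, 1867 and 2748 in the *renilla* siRNA replicates. On that scale, which rests on total reads and not on the size factors, *renilla* siRNA replicate 3 lay below *ovo* siRNA replicates 2 and 3 in both subunits.

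**Figure D1:**
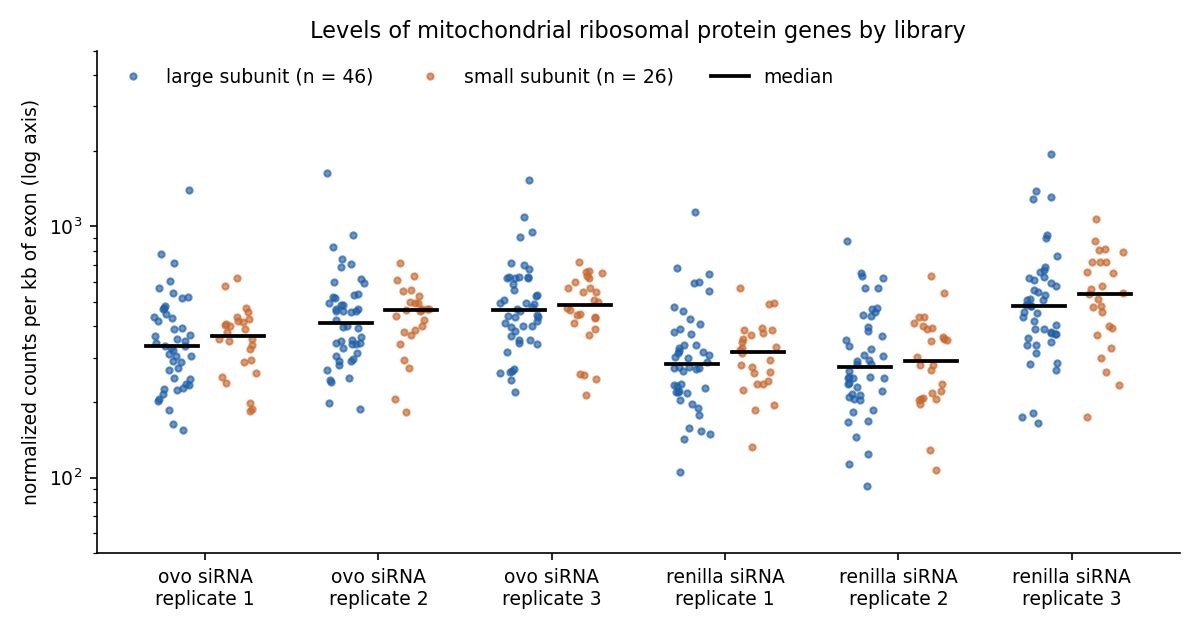
Normalized counts per kb of exon (log axis) of each tested member in each of the 6 libraries, with large subunit genes (n = 46) and small subunit genes (n = 26) side by side and black lines at the medians. The medians of both subunits move together, from 274 and 292 in *renilla* siRNA replicate 2 to 480 and 539 in *renilla* siRNA replicate 3.

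With the 6 libraries, few members changed after *ovo* siRNA, whereas 45 rose and 1 fell when *renilla* siRNA replicate 3 was left out (50.6% of all genes called). Of the 72 members tested, *mRpL3*, *mRpL10*, *mRpL45* and *mRpS26* rose and *mRpS5* fell with the 6 libraries, and 67 did not pass (limma, adjusted p under 0.05 over all 7893 genes tested). That is 6.94% of the members, where 25.9% of all genes tested were called in either direction, 11.8% as higher and 14.1% as lower. Without adjustment, 12 members (16.7%) had p under 0.05, where 39.0% of all genes did. The large subunit had 3 that rose and none that fell of 46, and the small subunit had 1 that rose and 1 that fell of 26. The median log2 fold change was 0.31 in the large subunit, with 38 of 46 above 0, and 0.18 in the small subunit, with 17 of 26 above 0. The median of all genes tested was 0.04. The large subunit median stayed above 0 in all 19 alternative settings, and the small subunit median in all but one, at -0.017 without *renilla* siRNA replicate 2. The median of all genes ran from -0.011 to 0.076 over these settings. By quantile normalization the small subunit median was 0.064 beside 0.059 over all genes. With the length and GC trend removed the large subunit median was 0.13 beside 0.068. The log2 fold changes ran from -0.68 (*mRpL33*, adjusted p = 0.165 by limma) to 0.90 (*mRpS26*), and their standard errors from 0.11 to 0.47 with a median of 0.25. The 3 libraries of the groups did not overlap for 7 members that were higher after *ovo* siRNA and 1 that was lower, where 23.6% and 21.7% of all genes tested did so in each direction. These 7 were *mRpL3*, *mRpL10*, *mRpL45*, *mRpS9*, *mRpS18C*, *mRpS26* and *mRpS30*. The count of calls rested on single libraries. With *ovo* siRNA replicate 2 or replicate 3 left out, no member passed by limma (5 and 6 at an unadjusted p under 0.05, against 27.4% and 29.6% of all genes), where 6.31% and 9.58% of all genes passed, and without *renilla* siRNA replicate 1 or replicate 2 only *mRpL3* rose and none fell (15.9% and 11.9% of all genes called). Without *ovo* siRNA replicate 1, 5 rose and none fell, where 7.2% of all genes rose and 10% fell.

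**Figure D2:**
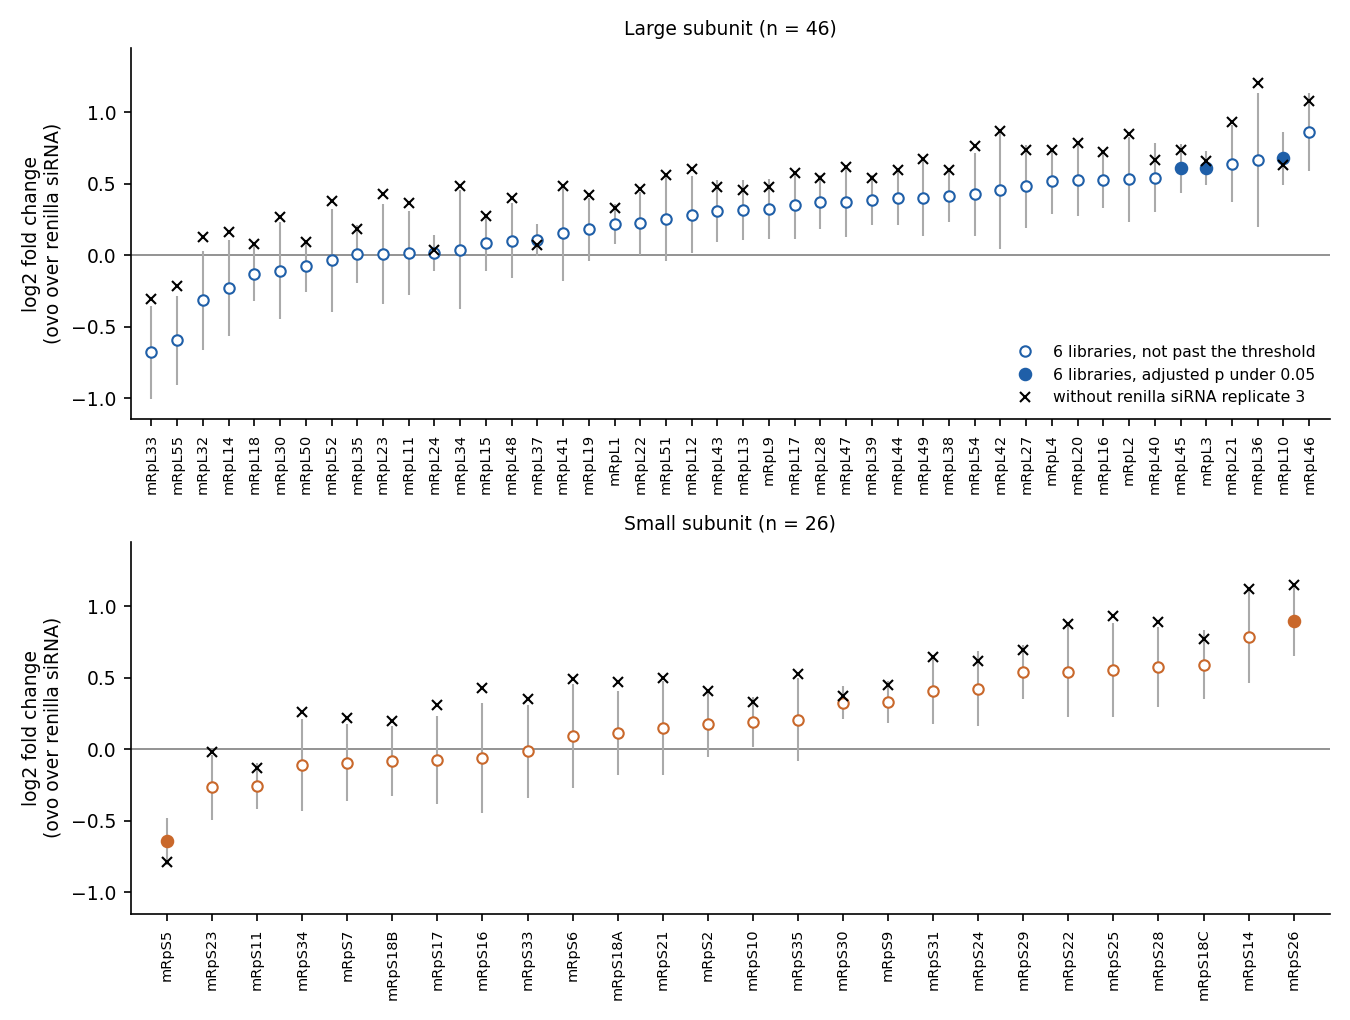
Log2 fold change of *ovo* siRNA over *renilla* siRNA for the 46 large and 26 small subunit genes, in ascending order, with bars of 1 standard error. Filled circles mark the 5 genes past the threshold with all 6 libraries, and crosses give the same difference without *renilla* siRNA replicate 3, which lies above the circle for most genes.

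Among the large subunit genes, *mRpL3* encodes the counterpart of bacterial L3, which reaches towards the peptidyl transferase centre. It had 580, 647 and 615 normalized counts in *ovo* siRNA replicates 1, 2 and 3 and 394, 384 and 429 in the *renilla* siRNA replicates. All *ovo* siRNA libraries lay above all controls, by 1.53-fold (log2 0.61 ± 0.12 SE, adjusted p = 0.011 by limma). This call was also made in 17 of the 19 alternative settings, more than for any other member, and failed without *ovo* siRNA replicate 2 or replicate 3 (adjusted p from 0.00012 to 0.081 over the settings).

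The gene *mRpL10* encodes the protein that holds the L12 stalk on the large subunit. It had 211, 296 and 318 normalized counts in the *ovo* siRNA replicates and 183, 167 and 158 in the controls. The lowest *ovo* siRNA library lay only a little above the highest control, and the mean difference was 1.598-fold (log2 0.68 ± 0.19 SE, adjusted p = 0.035 by limma). The product of *mRpL45* has no bacterial counterpart and in mammals lies at the tunnel exit, facing the inner membrane. Its normalized counts were 665, 764 and 910 after *ovo* siRNA and 480, 448 and 609 in the control. The groups did not overlap, with the highest control in replicate 3, and differed by 1.52-fold (log2 0.61 ± 0.17 SE, adjusted p = 0.038 by limma). Both calls were made in 12 of the 19 alternative settings. Both failed when *ovo* siRNA replicate 2 or 3 or *renilla* siRNA replicate 1 or 2 was left out, with adjusted p up to 0.152 for *mRpL10* and 0.147 for *mRpL45*. Both also failed by quantile normalization and on thinned reads, *mRpL10* with no filter, and *mRpL45* with the length and GC trend removed (log2 0.28, 1.22-fold, adjusted p = 0.053 by limma).

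In the small subunit, *mRpS26* encodes a protein found only in mitochondrial ribosomes. It had 287, 388 and 412 normalized counts in the *ovo* siRNA replicates and 160, 162 and 271 in the *renilla* siRNA replicates. Again replicate 3 was the highest control, just under the lowest *ovo* siRNA library. The difference was 1.86-fold (log2 0.90 ± 0.25 SE, adjusted p = 0.033 by limma), and it passed in 15 of the 19 alternative settings. It too failed without *ovo* siRNA replicate 2 or 3 or *renilla* siRNA replicate 1 or 2, with an adjusted p of up to 0.133.

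The only member that fell was *mRpS5*, for the counterpart of bacterial S5, a protein at the mRNA entry of the small subunit. It had 333, 346 and 358 normalized counts in the *ovo* siRNA replicates, which lay close together, against 541, 658 and 442 in the *renilla* siRNA replicates. The lowest control was replicate 3, and the difference was 1.56-fold (log2 -0.64 ± 0.16 SE, adjusted p = 0.027 by limma). With 1682 bases of exon *mRpS5* is among the longer members, and its GC content of 35.1% is the lowest among those tested. The fall passed in 12 of the 19 alternative settings. It failed when any library other than *renilla* siRNA replicate 3 was left out, and was -0.065 on the log2 scale with the length and GC trend removed. Over the settings its adjusted p ran from 0.00052 to 0.80 by limma.

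**Figure D3:**
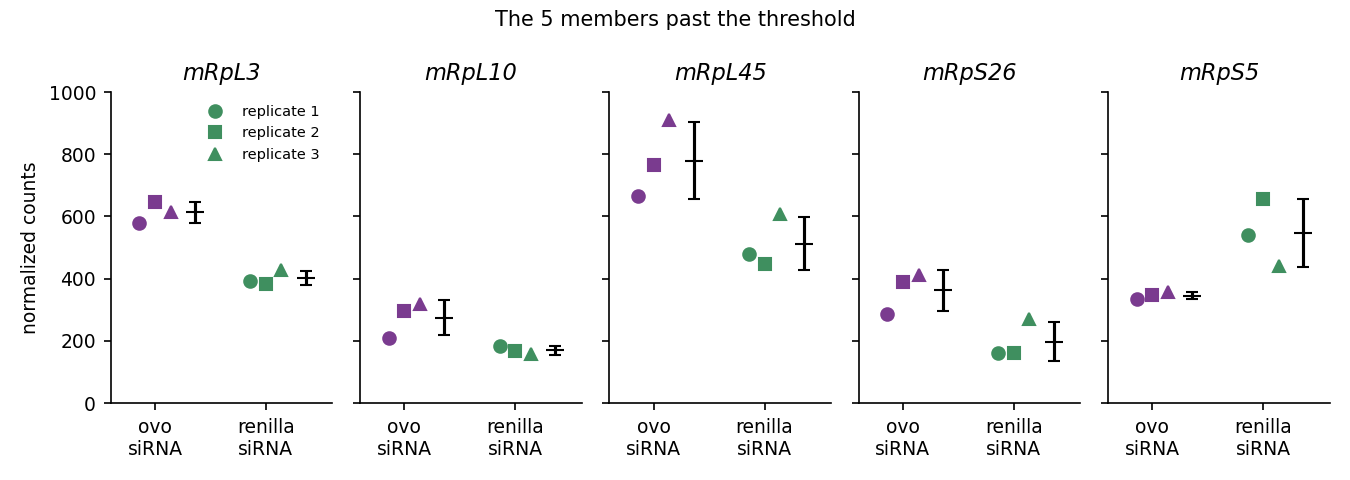
Normalized counts of the 5 members past the threshold in each library, with replicates 1, 2 and 3 as circles, squares and triangles and the mean with its SD (n = 3) in black beside each group. The *ovo* siRNA libraries lie above all controls for *mRpL3*, *mRpL10*, *mRpL45* and *mRpS26* and below them for *mRpS5*, and *renilla* siRNA replicate 3 is the highest control for *mRpL3*, *mRpL45* and *mRpS26*.

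The promoters of these 5 genes and of *mRpL12*, the most abundant member, are shown, since some carry sequences tied to housekeeping transcription or to Ovo. The part of these sequences in the levels of the members was not tested. Each is 300 bases of the Release 6 (dm6) genome, from 250 before to 50 after the annotated start. The positions are chrX:15760998-15761297 for *mRpL3*, chr2L:203529-203828 for *mRpL10*, chr3R:22618242-22618541 for *mRpL45*, chr3L:18106329-18106628 for *mRpS26*, chr3L:24536986-24537285 for *mRpS5* and chr3L:8956541-8956840 for *mRpL12*, all on the plus strand. Capitals mark TATCGATA, the DNA replication-related element bound by DREF at many housekeeping genes, or CCGTTA, a core of the sequence bound by Ovo, on either strand.
mRpL3: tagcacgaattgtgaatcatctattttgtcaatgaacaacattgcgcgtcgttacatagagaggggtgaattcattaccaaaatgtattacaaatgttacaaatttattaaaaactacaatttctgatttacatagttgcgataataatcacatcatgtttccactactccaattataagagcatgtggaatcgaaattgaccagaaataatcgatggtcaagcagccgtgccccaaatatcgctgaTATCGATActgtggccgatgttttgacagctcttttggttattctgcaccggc
mRpL10: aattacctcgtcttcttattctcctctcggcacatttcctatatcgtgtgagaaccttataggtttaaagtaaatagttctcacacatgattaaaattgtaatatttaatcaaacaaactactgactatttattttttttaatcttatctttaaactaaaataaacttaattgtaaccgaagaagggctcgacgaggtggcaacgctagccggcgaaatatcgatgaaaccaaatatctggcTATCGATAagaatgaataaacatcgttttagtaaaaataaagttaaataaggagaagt
mRpL45: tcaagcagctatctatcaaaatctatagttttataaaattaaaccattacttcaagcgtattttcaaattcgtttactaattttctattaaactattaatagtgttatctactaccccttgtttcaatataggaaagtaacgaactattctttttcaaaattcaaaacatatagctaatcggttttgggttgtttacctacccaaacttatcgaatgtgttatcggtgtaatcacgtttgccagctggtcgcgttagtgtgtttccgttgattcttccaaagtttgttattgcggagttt
mRpS26: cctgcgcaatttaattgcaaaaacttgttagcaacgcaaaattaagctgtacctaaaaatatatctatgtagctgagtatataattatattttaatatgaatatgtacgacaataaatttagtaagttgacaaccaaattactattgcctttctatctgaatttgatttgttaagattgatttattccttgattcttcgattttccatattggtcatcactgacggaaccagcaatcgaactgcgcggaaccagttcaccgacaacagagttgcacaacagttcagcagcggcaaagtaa
mRpS5: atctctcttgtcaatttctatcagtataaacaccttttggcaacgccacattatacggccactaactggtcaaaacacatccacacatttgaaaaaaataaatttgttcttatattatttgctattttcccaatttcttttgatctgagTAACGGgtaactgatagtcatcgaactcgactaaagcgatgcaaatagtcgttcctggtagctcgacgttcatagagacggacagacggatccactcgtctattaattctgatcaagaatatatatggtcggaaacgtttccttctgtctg
mRpL12: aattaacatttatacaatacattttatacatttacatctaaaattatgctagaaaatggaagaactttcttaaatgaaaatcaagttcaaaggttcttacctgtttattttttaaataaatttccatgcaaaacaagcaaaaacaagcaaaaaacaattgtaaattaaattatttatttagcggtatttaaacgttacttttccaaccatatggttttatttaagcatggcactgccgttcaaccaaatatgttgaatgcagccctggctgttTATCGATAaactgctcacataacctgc

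The element TATCGATA, which reads the same on both strands, began 3 bases before the start in *mRpL3*, 8 bases before it in *mRpL10* and 24 bases into the transcript in *mRpL12*. In *mRpS5* the Ovo core stood on the minus strand, its first base 101 bases before the start, and *mRpL45* and *mRpS26* held neither within this window. Over all 73 members, 15 promoters held TATCGATA (20.5%), against 14.7% of the promoters of the 7567 protein-coding genes tested. The share was 23.4% in the large subunit (11 of 47) and 15.4% in the small subunit (4 of 26). The core CCGTTA was in 11 member promoters (15.1%, against 10.8%), and the looser CNGTTA, which includes it, in 36 (49.3%, against 41.8%). The E-box CACGTG, bound by Myc, was in 5 (6.85%, against 4.77%). The 15 tested members with TATCGATA had a median log2 fold change of 0.39, and the 57 without had 0.21. The 10 tested members with CCGTTA had a median of -0.0028 and the 62 without had 0.31. The 4 rises were among the latter, which are most of the members. The only fall, *mRpS5*, was among the former, and it did not pass with the length and GC trend removed (log2 -0.065, adjusted p = 0.80 by limma). Over all genes tested, with or without the motif, 11.8% rose and 14.1% fell, so these few calls show nothing about the motif. With the looser CNGTTA the medians were 0.21 in 35 members and 0.31 in 37, and the former held 1 rise, *mRpL10*, and the fall. These medians are of the fit with the 6 libraries, without account of exon length, and the differences between them were not tested. Without *renilla* siRNA replicate 3 the tested members with CCGTTA ran from -0.79 (*mRpS5*) to 0.89 (*mRpS28*), with only *mRpS5* and *mRpS23* below 0. The matches describe letters in the window only.

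One control library stood apart from the others in nearly all members. In *renilla* siRNA replicate 3, 69 of the 72 members were higher than in replicate 1, with a median difference of 0.73 on the log2 scale, and 69 were higher than in replicate 2, with a median of 0.80. Over all genes tested, the same medians were -0.02 and -0.01. Between *renilla* siRNA replicates 1 and 2 the median difference of the members was only -0.04. The *ovo* siRNA libraries also differed, with 65 of 72 members higher in replicate 2 than in replicate 1 (median 0.25) and 68 higher in replicate 3 than in replicate 1 (median 0.45). The median coefficient of variation of the members was 16.8% in the *ovo* siRNA group (10.5% over all genes) and 32.1% in the *renilla* siRNA group (19.6% over all genes). Over *renilla* siRNA replicates 1 and 2 alone it was 6.76% (5.95% over all genes).

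The members are short transcripts, with a median of 783 bases of exon (327 in *mRpL34* to 2078 in *mRpS30*) against 2149 over all genes tested. Their GC content was close to that of the other genes, with medians of 49.96% and 48.9%. The excess in *renilla* siRNA replicate 3 fell with exon length, with a Spearman's rho of -0.64 over the 72 members and -0.63 over 7868 genes. These points share their libraries and are given as a description. In the 37 shorter members (327 to 783 bases) the median excess was 1.04 on the log2 scale, and none rose or fell. In the 35 longer members (790 to 2078 bases) it was 0.64, and all 5 calls were among them. The 3 members at or below the mean of the other controls in this library were *mRpL10* (-0.15), *mRpL37* (-0.10) and *mRpS5* (-0.43), and *mRpL3* was higher by only 0.14. The part of depth and exon length in the difference of this library was not tested.

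**Figure D4:**
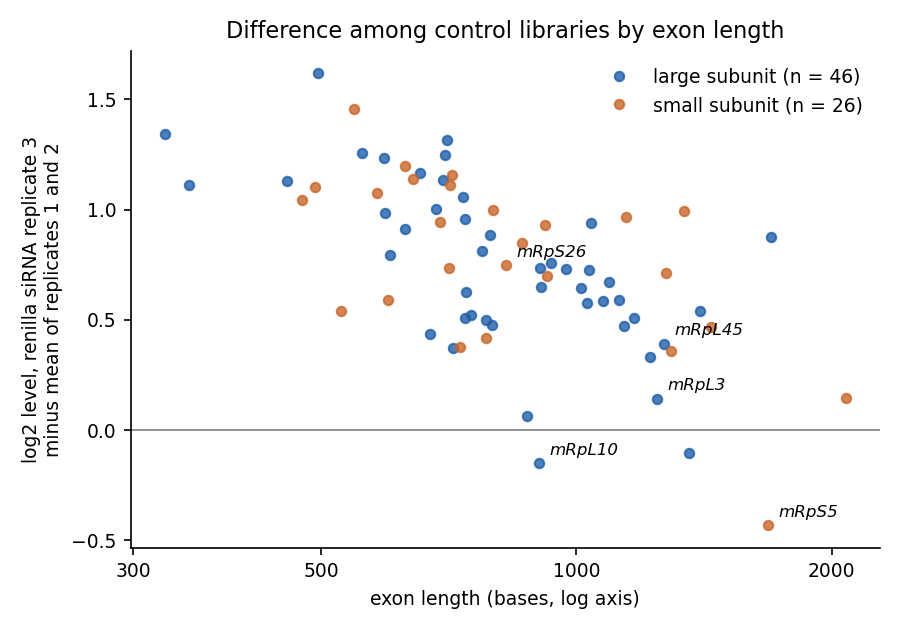
Log2 level in *renilla* siRNA replicate 3 minus the mean of replicates 1 and 2, against exon length in bases (log axis), for the 46 large and 26 small subunit genes. The difference tends to be larger in shorter genes (rho -0.64 over 72 members), and *mRpL10* and *mRpS5*, at -0.15 and -0.43, lie below 0.

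Without *renilla* siRNA replicate 3 the picture of the members was different. A total of 45 rose, 30 of the large and 15 of the small subunit, and *mRpS5* alone fell, where 50.6% of all genes were called, 26.2% as higher and 24.4% as lower (limma, 3 against 2 libraries). All 4 members that rose with the 6 libraries were among the 45. The medians were then 0.51 in the large and 0.46 in the small subunit, beside 0.04 over all genes, and 67 of 72 members lay above 0. Of the abundant members, *mRpL12* rose by 0.60 and *mRpL28* by 0.54 on the log2 scale. Of the low ones, *mRpL21* rose by 0.93, *mRpL40* by 0.67, *mRpL54* by 0.76, *mRpS18C* by 0.77 and *mRpS24* by 0.62. The paralog *mRpS18A* rose as well, by 0.47, and *mRpS18B*, at 0.20, did not pass, nor did *mRpL23* at 0.42, *mRpL30* at 0.27 and *mRpS7* at 0.22. With all 6 libraries these differences were 0.28 for *mRpL12* (adjusted p = 0.465), 0.64 for *mRpL21* (adjusted p = 0.118) and 0.59 for *mRpS18C* (adjusted p = 0.112), by limma.

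When a smooth trend with exon length and GC content, fitted over all genes, was removed from each library, 13 members rose and none fell by limma (21 at an unadjusted p under 0.05, 29.2% against 41.9% of all genes), where 28.5% of all genes were called, 16.2% as higher and 12.3% as lower. The medians were 0.13 in the large subunit and 0.14 in the small subunit, beside 0.07 over all genes. Of the 13, 12 were also among the 45 of 72 that rose without *renilla* siRNA replicate 3. Both fits share libraries and most members were in the larger set, so the overlap is given as a description. These 12 were *mRpL3*, *mRpL10*, *mRpL17*, *mRpL20*, *mRpL21*, *mRpL27*, *mRpL46*, *mRpL54*, *mRpS14*, *mRpS18C*, *mRpS26* and *mRpS28*. The gene *mRpL46*, singled out after its values were seen, had 333, 541 and 564 normalized counts in the *ovo* siRNA replicates and 251, 193 and 346 in the controls. It just missed the threshold with the 6 libraries (log2 0.86 ± 0.27 SE, adjusted p = 0.052 by limma), and *ovo* siRNA replicate 1 lay below *renilla* siRNA replicate 3.

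The members followed a common profile over the 6 libraries. Each was standardized on the log2 scale, and the mean over members was -0.29, 0.42 and 0.75 in the *ovo* siRNA replicates and -0.83, -0.96 and 0.91 in the *renilla* siRNA replicates. The median Pearson correlation of a member with this mean, which includes the member itself, was 0.90, with 0.91 in the large and 0.84 in the small subunit, and 53 of 72 lay above 0.8. Over all 7893 genes tested the median was -0.02, and 1138 lay above 0.8. The 2 members below 0 were *mRpS5* at -0.65 and *mRpL37* at -0.19. The genes outside the ribosome whose profile was most like the mean over these 6 libraries were *schlank*, a ceramide synthase gene, *levy*, for a subunit of cytochrome c oxidase, and *NC2alpha*, for a subunit of a general transcription repressor. Each had a correlation of 0.998, given as a description. The cytosolic ribosomal protein genes *RpS23*, *RpS14a* and *RpS26*, singled out after their values were seen, had 0.997, 0.996 and 0.996.

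Some proteins of the mitochondrial small subunit bear older names. The gene *tko*, for the counterpart of bacterial S12, had 216, 313 and 347 normalized counts in the *ovo* siRNA replicates and 141, 196 and 315 in the controls. The groups overlapped (log2 0.47 ± 0.31 SE, adjusted p = 0.290 by limma). The gene *bonsai*, for the counterpart of S15, had 573, 545 and 566 against 444, 378 and 525. Its groups did not overlap, yet the difference did not pass (log2 0.33 ± 0.15 SE, adjusted p = 0.139 by limma). Without *renilla* siRNA replicate 3 both rose, *tko* by 0.78 and *bonsai* by 0.45 on the log2 scale, where 26.2% of all genes rose. With the length and GC trend removed neither passed, at log2 0.31 for *tko* (adjusted p = 0.398) and 0.26 for *bonsai* (adjusted p = 0.115), by limma. The rRNAs of the mitochondrial ribosome, *mt:lrRNA* and *mt:srRNA*, were listed at 0 in every library, as were all 38 rows of the mitochondrial genome with its 13 mRNAs. Every cell uses these genes, so nothing was read from their values.

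The genes that serve the mitochondrial ribosome were counted in the same fit. Of 9 mitochondrial translation factors tested, 2 rose and none fell: *mEFTu1*, which brings aminoacyl-tRNA to the ribosome, by 1.66-fold (adjusted p = 0.020), and the release factor gene *mRF1* by 1.63-fold (adjusted p = 0.029). Neither passed with the length and GC trend removed, at log2 0.23 (adjusted p = 0.165) and 0.43 (adjusted p = 0.061) by limma. Of 18 genes for mitochondrial aminoacyl-tRNA supply, 7 rose and none fell. Those with the smallest adjusted p were the tRNA synthetase genes *ValRS-m* (1.72-fold, adjusted p = 0.015), *AlaRS-m* (1.95-fold, adjusted p = 0.020) and *MetRS-m* (1.74-fold, adjusted p = 0.023). Of 15 factors of mitochondrial transcription and RNA handling, 7 rose and none fell. They included *Lrpprc2*, for a PPR protein tied to mitochondrial mRNAs, which rose 2.62-fold (adjusted p = 0.0095), *mldr* (2.00-fold, adjusted p = 0.013) and the poly(A) polymerase gene *MTPAP* (1.51-fold, adjusted p = 0.015), all by limma. The rise of *MTPAP* did not pass with the trend removed (log2 0.14, adjusted p = 0.326 by limma). The shares that rose stand beside 11.8% of all genes. The median exon lengths of these lists were 1711, 2292.5 and 1999 bases, against 783 in the ribosomal protein genes. The median log2 fold changes were 0.47, 0.40 and 0.49 with the 6 libraries and 0.45, 0.40 and 0.44 without *renilla* siRNA replicate 3. Without that library 6, 10 and 8 rose and only 1 gene, of aminoacyl-tRNA supply, fell, beside 26.2% and 24.4% of all genes. With the length and GC trend removed the medians were 0.23, 0.24 and 0.23. By limma 1, 7 and 7 then rose and none fell, beside 16.2% and 12.3% of all genes. The genes *waw*, *GatC*, *mtTFB1* and *SLIRP1* of these lists were listed at 0, and each shares all of its exonic bases with another gene on the same strand.

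The genes for cytosolic ribosomal proteins are also short, with median exon lengths of 927 bases in the large and 871 in the small subunit. With the 6 libraries, 1 of 46 large subunit genes rose (*RpL3*, 1.57-fold, adjusted p = 0.020), a call lost with the trend removed (log2 0.40, adjusted p = 0.088 by limma). Of 36 small subunit genes 1 rose, *RpS5b* (1.94-fold, adjusted p = 0.046), and 1 fell, *RpS10a* (1.82-fold, adjusted p = 0.030), by limma. Over all genes 11.8% rose and 14.1% fell. The medians of the large and small subunit lists were 0.18 and 0.21. Without *renilla* siRNA replicate 3, 25 of the large and 20 of the small subunit rose and 1 of the small subunit fell. The medians were 0.52 and 0.52, and 26.2% of all genes rose and 24.4% fell. With the length and GC trend removed, 3 of the large subunit rose and 2 fell, and 3 of the small subunit rose and 1 fell. The medians were then 0.08 and 0.18, and 16.2% of all genes rose and 12.3% fell. The nuclear-encoded subunits of the respiratory chain are joined by the mitochondrial ribosome's products. Of 63 such genes tested, 10 rose and 1 fell, beside 11.8% and 14.1% of all genes. The smallest adjusted p were those of *ND-75* (2.22-fold, adjusted p = 0.0029), *UQCR-C2* (2.46-fold, adjusted p = 0.0036) and *ND-42* (1.66-fold, adjusted p = 0.0063), which all rose. The median log2 fold change of the 63 was 0.34 with the 6 libraries. It was 0.51 without *renilla* siRNA replicate 3, where 47 rose and 1 fell, beside 26.2% and 24.4% of all genes. With the length and GC trend removed it was 0.33, and 23 rose and none fell, beside 16.2% and 12.3% of all genes. Differences between these lists and the mitochondrial ribosomal proteins were not tested.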

How the data were processed

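Per the labels, polyadenylated RNA from 500 ng of total RNA was made into stranded libraries. Trimming with cutadapt 1.18, alignment to dm6 with STAR 2.7.3a, counting with Subread 1.5.3 and scaling with DESeq2 1.30.1 are named in the submitters' processing notes. The authors deposited a signal table of DESeq2-normalized counts per gene, counted by featureCounts on the reverse strand, which gave whole reads (100% within 0.01) when divided by 1 value per library. A second deposited table holds the authors' own comparison and was not used. Exon lengths, GC content and starts came from a later Ensembl annotation of the same build (17019 of 17807 symbols matched directly, 723 by an older symbol, 65 not), and promoter sequences from the RefSeq copy of that genome.

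Genes with at least 10 normalized counts in 3 libraries were kept, and log2(normalized count + 1) was fitted with limma 3.58.1 in R 4.3.3 (3 against 3, no covariate, mean-dependent prior, two-sided, Benjamini-Hochberg over all genes kept). Fold changes are on this scale. The study describes the replicates of each group as distinct samples, without saying whether these were separate cultures, so p-values measure the spread between these libraries. Floors cover counting error only. An exact permutation test of 3 against 3 cannot go below p = 0.1 and was not used. Named were the members past the threshold, the 5 highest and 5 lowest per kb, the 3 genes related to S18, *tko*, *bonsai*, both mitochondrial rRNAs, *ovo*, *l(3)mbt*, up to 3 called genes of each other list by smallest adjusted p, and the 3 most similar non-members. The members and lists were chosen with earlier results of these data known. Alternatives were other pseudocounts, filters and scalings, a robust prior, a replicate block, removal of a length and GC trend (natural splines, 5 degrees of freedom), recovered reads tested by DESeq2 1.42.0 or edgeR 4.0.16, thinned reads and leaving out each library.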

Additional observations from a re-analysis of the deposited data

How the results depend on the processing

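With the 6 libraries 4 members rose and 1 fell. Leaving out 1 library gave between 0 and 45 rises and between 0 and 1 falls, with 45 and 1 without *renilla* siRNA replicate 3 and 0 falls without each of the other libraries in turn. Over all genes, 1.48% to 26.2% rose and 4.84% to 24.4% fell in these fits. Quantile normalization gave 2 rises and 1 fall, where 11.9% of all genes rose and 12.4% fell. Thinned reads gave 2 and 1 (7.2% and 10.9%), and DESeq2 8 and 1 (14.5% and 18.9%). Removal of the length and GC trend gave 13 rises and 0 falls (16.2% and 12.3%). The cause was not tested. Pseudocounts of 0.5 and 5, a filter of 50, TMM scaling and a robust prior gave 4 rises and 1 fall. In those settings 11.3% to 13.1% of all genes rose and 12.7% to 14.3% fell. No filter gave 3 and 1 (5.52% and 7.48%), and edgeR 5 and 1 (13% and 16%). With the replicate number as a block, 20 members rose and 3 fell (18.7% and 19% of all genes), and with the block and the trend removal 16 rose and 1 fell (21.1% and 15.2%). Whether the numbers pair the libraries was not settled. Deviations of *ovo* and *renilla* siRNA libraries from their group means correlated at 0.44, -0.14 and 0.46 for numbers 1, 2 and 3. For *ovo* siRNA replicates 1 and 3 the control of the same number was the best match, though replicate 1 had 0.43 with *renilla* siRNA replicate 2. For *ovo* siRNA replicate 2 the best match was *renilla* siRNA replicate 3 (0.15). Deviations from a shared group mean depend on each other, so these values cannot decide it. The median log2 fold change ran from 0.13 to 0.51 in the large subunit and from -0.017 to 0.46 in the small subunit. The lowest values were those with the trend removed and without *renilla* siRNA replicate 2, and both highest were without *renilla* siRNA replicate 3. None of the 5 called members changed sign in these settings, but some uncalled members did. With the trend removed, with or without the block, *mRpL12* was at -0.077 and *mRpS7* at 0.13 on the log2 scale. By quantile normalization *mRpL23* was at -0.11 and *mRpS18A* at -0.040, and *mRpL23* was at -0.049 by edgeR, -0.10 by DESeq2 and -0.045 on thinned reads. Leaving out 1 library gave -0.22 to 0.42 for *mRpL23*, -0.32 to 0.27 for *mRpL30*, -0.089 to 0.47 for *mRpS18A*, -0.29 to 0.20 for *mRpS18B* and -0.34 to 0.22 for *mRpS7*, each highest without *renilla* siRNA replicate 3. The depth of that library, at 21 to 326 reads per member, limits every difference that includes it.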
